A study of Mus musculus with 18 samples.

Results

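The endothelial genes of brain capillaries examined here were Slc2a1, Cldn5, Pecam1, Flt1, Kdr, Tek, Cdh5 and Ly6c1, measured on expression arrays of mouse striatum. Every probe set, a group of array probes for 1 transcript, that was annotated to only 1 of these 8 symbols was taken. This gave 12 probe sets of 22690, for 7 of the 8 genes. The probe set of Ly6c1, a surface protein of endothelial and myeloid cells, also carried the symbol of a related gene and was not used. Of the 12 probe sets, 7 passed a filter on dim values (log2 above 4 in at least 3 arrays) and were tested. They stood for Slc2a1 (3 probe sets), Flt1 (2), Cldn5 (1) and Tek (1).

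Brain capillaries are lined by endothelial cells that form the blood-brain barrier. Their tight junctions close the space between neighbouring cells, so that glucose enters the brain through carriers, of which Slc2a1 (GLUT1) is the main one in these cells and is also made by astrocytes. Cldn5 is a tight junction protein, Pecam1 and Cdh5 are adhesion proteins of endothelial junctions, Flt1 and Kdr are receptors for vascular endothelial growth factor, and Tek is the receptor for angiopoietins. The junction and receptor genes are commonly used as markers of vessel content, although each can also change within a cell.

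The study measured total RNA of the striatum, including the nucleus accumbens, from Camk4 mutant and control mice, with 1 array for each of 18 animals. CaMKIV, the kinase made from Camk4, phosphorylates the transcription factor CREB. There were 6 mutant and 6 control animals given cocaine and 3 mutant and 3 control animals given saline. All were littermates aged 10 to 20 weeks that had been housed singly and handled for 5 days. Cocaine was given intraperitoneally at 25 mg/kg, and animals were killed 1 hour after injection. The labels name no allele, and they do not say in which cells the mutation acts. Groups rest on the sample titles, since the separate description lines matched the title's genotype and treatment in 0 of 18 samples. The titles number 12 animals in Arabic numerals, 3 per group, and 6 cocaine animals in Roman numerals, 3 per genotype. Arabic numbers fall into runs of 4, and in each run all groups have 1 animal. What the numbering stands for is not stated.

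The tissue was checked first. Of the endothelial genes, Slc2a1, Cldn5, Flt1 and Tek gave signal, and the defining markers Pecam1, Kdr and Cdh5 stayed below the filter. Camk4, read by its brightest probe set, averaged 7.27 ± 0.27 after cocaine and 7.30 ± 0.16 after saline in mutant mice (log2, SD, n = 6 and 3), and 7.65 ± 0.10 after cocaine and 7.65 ± 0.06 after saline in control mice. Its difference, mutant minus control, was -0.39 after cocaine and -0.35 after saline, with limma adjusted p values of 0.427 and 1.00. Mutant animals lay between 6.85 and 7.69 and control animals between 7.52 and 7.76, so the genotypes overlapped. Mutant cocaine replicate 6, with 7.69, was the 1 mutant animal above the lowest control animal, and the highest of the others had 7.47. The lowest value, 6.85, was that of mutant cocaine replicate 5, and without this array the difference after cocaine was -0.28 (limma adjusted p = 0.561). Whether the probes lie in the mutated part of the gene is not known, so this value does not check the genotype labels. Fos, an immediate early gene of active neurons, differed by 4.55 ± 0.48 between cocaine and saline (log2, SE, limma adjusted p = 5.53e-04). Its lowest value after cocaine was 7.39, against a highest value of 6.52 after saline. Egr2, another immediate early gene, differed by 3.46 ± 0.39 (limma adjusted p = 5.53e-04). The difference between 3' and 5' actin probe sets, which grows as RNA shortens, was 3.59 in mutant cocaine replicate 5 and 1.57 to 2.55 in the other 17 arrays. Values without that array are given for some results, and not for every result that includes it.

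The promoters of Slc2a1 and Flt1 are shown because Flt1 holds the full site of CREB, a target of CaMKIV, and Slc2a1 holds the core of the hypoxia response element, and neither motif was found in the other matched promoters. They run from 250 bases before to 50 bases after the gene's start, on the gene's own strand, and come from RefSeq (GRCm38.p6). Capitals mark matches to ACGTG, the core of the hypoxia response element, to TGACGTCA, the full CREB site, and to TATAAA, the TATA box. Slc2a1 lies on the plus strand at chr4:119108495-119108794 and Flt1 on the minus strand at chr5:147725962-147726261.
Slc2a1: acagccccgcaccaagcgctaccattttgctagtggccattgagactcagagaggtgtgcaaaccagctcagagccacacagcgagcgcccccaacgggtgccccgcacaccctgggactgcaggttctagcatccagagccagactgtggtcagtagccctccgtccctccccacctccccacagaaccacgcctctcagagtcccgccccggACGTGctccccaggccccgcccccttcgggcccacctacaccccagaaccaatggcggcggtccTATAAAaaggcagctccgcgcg
Flt1: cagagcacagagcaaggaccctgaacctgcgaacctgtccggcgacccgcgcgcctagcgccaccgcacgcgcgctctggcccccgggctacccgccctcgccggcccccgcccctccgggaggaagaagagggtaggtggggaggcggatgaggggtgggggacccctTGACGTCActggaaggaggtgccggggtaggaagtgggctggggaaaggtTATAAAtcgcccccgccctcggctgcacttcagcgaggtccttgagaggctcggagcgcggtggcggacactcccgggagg
The Slc2a1 promoter held 1 ACGTG, 1 TATAAA and 2 GC boxes (GGGCGG), and neither TGACGTCA nor its shorter form TGACG. The Flt1 promoter held 1 TGACGTCA, 1 TATAAA, 3 GC boxes and 2 AGGAAG, a core of sites for ETS factors, which are known to drive many endothelial genes. Both of its TGACG matches lie inside TGACGTCA.

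All motifs were searched on both strands in 32851 promoters of this length. TGACGTCA occurred in 1.79% of them, TGACG in 20.8%, ACGTG in 19.6%, AGGAAG in 35.4%, the longer ETS sequence CCGGAAGT in 3.89%, GGGCGG in 35.7% and TATAAA in 13.6%. Of the 8 genes, 6 matched an entry of the promoter table, Ly6c1 with 2 starts. Flt1 was the 1 matched gene whose promoter held TGACGTCA, and Slc2a1 the 1 whose promoter held ACGTG. The promoters of Cldn5, Kdr and Tek held no full CREB site, no hypoxia core, no AGGAAG and no TATA box.

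Slc2a1 had higher mean values after cocaine than after saline in both genotypes and on all 3 of its probe sets, by amounts that did not pass the test over all probe sets. In the brightest probe set (1434773_a_at), mutant cocaine animals ranged from 11.52 through a median of 11.73 to 12.15, and mutant saline animals had 11.38, 11.49 and 11.47. Control cocaine animals ranged from 11.52 through a median of 11.64 to 11.92, and control saline animals had 11.42, 11.49 and 11.49. All 12 cocaine arrays lay above all 6 saline arrays, with 11.522 as the lowest cocaine value and 11.488 as the highest saline value. The highest value of all was that of mutant cocaine replicate 5, the array with the large actin difference.

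The second probe set (1426599_a_at) gave the same order. Mutant cocaine animals ranged from 10.24 through a median of 10.42 to 10.74, and mutant saline animals had 10.16, 10.14 and 10.14. Control cocaine animals ranged from 10.22 through a median of 10.29 to 10.59, and control saline animals had 10.12, 10.16 and 10.22. The groups again did not overlap, but only just, the lowest cocaine value being 10.224 and the highest saline value 10.221. In the third probe set (1426600_at), 10 of 12 cocaine arrays lay above the highest saline array. Mutant cocaine animals there ranged from 8.50 to 9.04, with saline values of 8.46, 8.46 and 8.51. Control cocaine animals ranged from 8.34 to 8.97, with saline values of 8.45, 8.36 and 8.51.

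**Figure D1:**
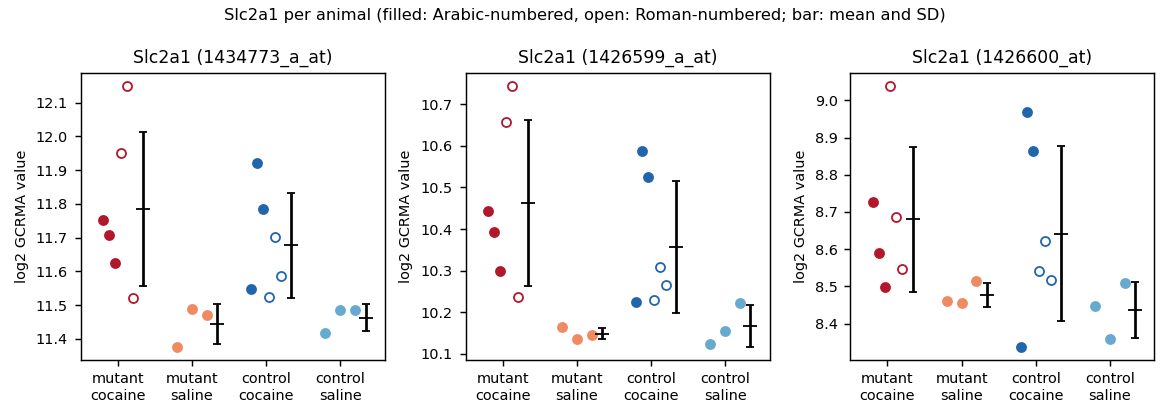
Log2 GCRMA values of the 3 Slc2a1 probe sets (y axes) in each animal, by genotype and treatment (x axes). Filled points are Arabic-numbered and open points Roman-numbered animals, and bars are the mean and SD. In the left and middle panels every cocaine animal lies above every saline animal, and in the right panel 10 of 12 lie above the highest saline animal.

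Non-overlap of this kind, every cocaine array above every saline array, was found for 2 of the 7 tested endothelial probe sets, both of Slc2a1, and for 52 of all 12674 tested probe sets (0.41%). Averaged over genotypes, Slc2a1 differed by 0.27 ± 0.09, 0.25 ± 0.09 and 0.21 ± 0.11 between cocaine and saline (log2, SE, in the order of the probe sets above), which is 1.21-, 1.19- and 1.15-fold. None of them passed the threshold of an adjusted p under 0.05 in limma over all tested probe sets (adjusted p = 0.819, 0.819 and 0.859). Unadjusted limma p values were 0.0101, 0.0098 and 0.0673. The bulk tissue does not separate more cells of a type from more RNA per cell, so these 2 cannot be told apart for any value here.

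Saline animals were all Arabic-numbered, so the comparison was repeated in the 12 Arabic-numbered arrays alone. There Slc2a1 rose by 0.27 ± 0.06 and 0.25 ± 0.06 in the first 2 probe sets (limma adjusted p = 0.0236 and 0.0347), and the third differed by 0.21 ± 0.09 (adjusted p = 0.33). The 2 calls among 7 endothelial probe sets stand beside 430 calls among all 12674 (3.39%), of which 98 were higher after cocaine. The point estimates equal those above by construction, and the smaller error comes from leaving out the Roman-numbered arrays. Without mutant cocaine replicate 5 alone, 362 of all probe sets were called, and the adjusted p for the first 2 Slc2a1 probe sets were 0.0553 and 0.082. With the actin difference as a covariate in all 18 arrays, the first probe set differed by 0.23 (adjusted p = 0.45) and the second by 0.22 (adjusted p = 0.491). The actin difference itself averaged 2.38 ± 0.17 in Arabic-numbered cocaine arrays and 2.20 ± 0.19 in saline arrays (SD, n = 6 each).

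The runs of consecutive Arabic numbers give 6 pairs of a cocaine and a saline animal of the same genotype. In the first 2 Slc2a1 probe sets every pair had to be positive, since all cocaine arrays lay above all saline arrays, so the pairs add only the sizes, 0.13 to 0.44 and 0.10 to 0.43. In the third probe set the cocaine animal was higher in 5 of 6 pairs, with differences of -0.11 to 0.61. Among the other genes, Cldn5 was higher in the cocaine animal in 2 of 6, Tek in 4 of 6, and the Flt1 probe sets in 3 of 6 each. Animals of 1 run, Roman-numbered runs included, had a mean residual correlation of 0.0364 over all tested probe sets, with 8 of 21 pairs over 0.1. Pairs that shared neither run nor replicate number averaged -0.0664, with 7 of 33 over 0.1. The difference was not tested, so the runs are not shown to pair the animals.

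By genotype, the cocaine difference of the first Slc2a1 probe set was 0.33 ± 0.12 in mutant and 0.21 ± 0.12 in control mice (log2, SE). In the second it was 0.32 ± 0.12 in mutant and 0.19 ± 0.12 in control mice, and in the third 0.21 ± 0.14 in each. With each array left out in turn, mutant cocaine replicate 5 included, the mutant difference of the first probe set ran from 0.293 to 0.383. That of the second ran from 0.285 to 0.372. The interaction, mutant minus control response, was 0.12 ± 0.16, 0.12 ± 0.15 and 0.00 ± 0.18, with limma adjusted p values from 0.992 to 1.00. Across the left-out arrays it ran from 0.045 to 0.185 in the first probe set and from 0.061 to 0.175 in the second. In the Arabic-numbered arrays alone the interaction had the opposite sign, -0.04, -0.05 and -0.16, so the sign of the genotype difference in response depended on the Roman-numbered arrays. The genotypes differed by 0.11 ± 0.09, 0.11 ± 0.09 and 0.04 ± 0.11 after cocaine and by -0.02 ± 0.13, -0.02 ± 0.12 and 0.04 ± 0.15 after saline.

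Cldn5, the tight junction gene, did not share this pattern. Mutant cocaine animals ranged from 7.67 through a median of 7.97 to 8.13, and mutant saline animals had 7.80, 8.28 and 8.40. Control cocaine animals ranged from 7.65 through a median of 7.84 to 8.23, and control saline animals had 8.04, 8.02 and 8.24. The groups overlapped, and 0 of 12 cocaine arrays lay above the highest saline array. The cocaine difference was -0.11 ± 0.11 averaged over genotypes, -0.13 ± 0.15 in mutant and -0.09 ± 0.15 in control mice (log2, SE, limma adjusted p = 0.885, 0.805 and 1.00). Single arrays moved these values: without mutant saline replicate 1 they were -0.20 averaged over genotypes and -0.30 in mutant mice, and without mutant cocaine replicate 2 they were -0.03 and -0.0049. The genotype difference, mutant minus control, was 0.02 ± 0.11 after cocaine and 0.06 ± 0.16 after saline.

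Tek, the angiopoietin receptor, varied among the saline animals of each genotype. Mutant saline animals had 5.77, 6.69 and 6.28, against 5.88, 6.04 and 5.44 in control saline animals. Mutant cocaine animals ranged from 5.90 through a median of 6.10 to 6.44, and control cocaine animals from 5.78 through a median of 6.30 to 6.44. The 2 saline groups overlapped. The difference after saline was 0.46 ± 0.23 and after cocaine -0.10 ± 0.16 (mutant minus control, log2, SE, limma adjusted p = 1.00 and 0.771). The cocaine difference was -0.11 ± 0.21 in mutant and 0.46 ± 0.21 in control mice, and their difference, -0.56 ± 0.28, did not pass the threshold (limma adjusted p = 0.992). Single saline arrays moved both values. Without mutant saline replicate 2 the genotype difference after saline was 0.24 and the difference of the cocaine responses -0.34, without control saline replicate 3 they were 0.29 and -0.39, and without mutant saline replicate 1 they were 0.70 and -0.80.

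Flt1, a receptor and decoy for vascular endothelial growth factor, was measured by 2 tested probe sets. In the first (1451756_at), mutant cocaine animals ranged from 6.58 through a median of 6.88 to 7.13, and mutant saline animals had 6.74, 7.35 and 6.99. Control cocaine animals ranged from 6.36 through a median of 6.76 to 7.06, and control saline animals had 6.86, 6.86 and 6.61. The groups overlapped, with cocaine differences of 0.02 ± 0.14 in mutant and 0.14 ± 0.14 in control mice (log2, SE). The cocaine difference averaged over genotypes was 0.08 ± 0.11, and it was -0.08 when the numbering series was left out of the model. This probe set had the lowest adjusted p among the members for the numbering series, -0.32 ± 0.11 in Roman- minus Arabic-numbered arrays (limma adjusted p = 0.0881, against 6.16% of all probe sets called for this term).

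In the second Flt1 probe set (1419300_at) 2 arrays stood far below the rest. Mutant saline replicate 1 had 3.41 and control cocaine replicate 1 had 3.22, and the other 16 arrays lay between 6.12 and 7.72. These 2 arrays were not low in the first Flt1 probe set, with 6.74 and 6.75. They belong to the same run of consecutive animal numbers. The cocaine difference was 0.78 ± 0.87 in mutant and -1.22 ± 0.87 in control mice (log2, SE, limma adjusted p = 0.792 and 1.00). Without mutant saline replicate 1 the mutant difference was -0.43. Without control cocaine replicate 1 the difference averaged over genotypes was 0.35, against -0.22 with it.

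**Figure D2:**
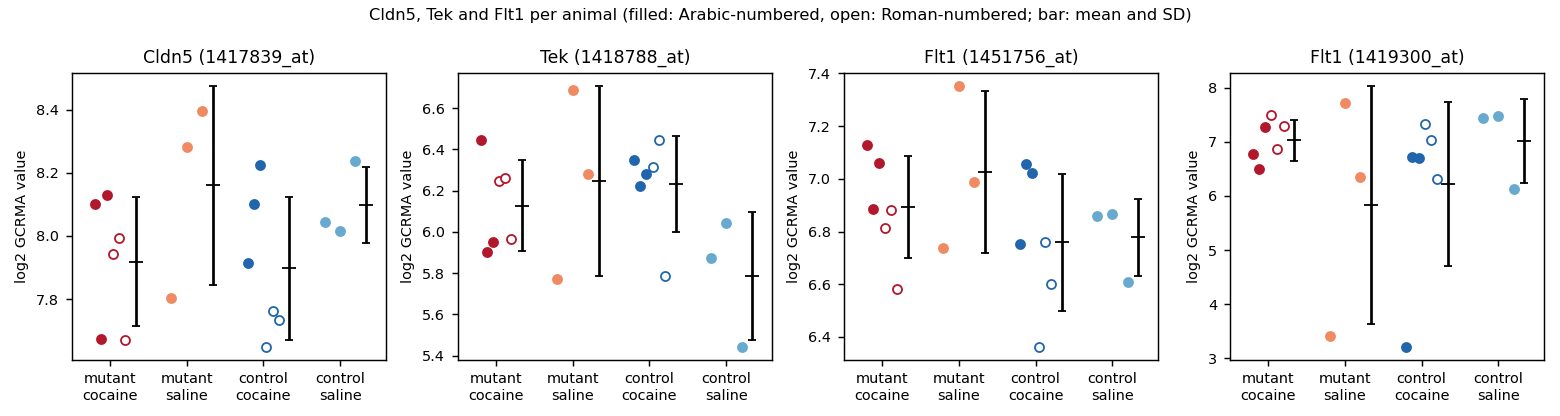
Log2 GCRMA values (y axes) of Cldn5, Tek and the 2 tested Flt1 probe sets in each animal, by genotype and treatment (x axes). Filled points are Arabic-numbered and open points Roman-numbered animals, and bars are the mean and SD. Cocaine and saline animals overlap in every panel, and 2 animals in the right panel lie near 3.41 and 3.22.

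The 5 probe sets that did not pass the filter gave little signal. Pecam1 lay between 3.12 and 4.19 over all 18 arrays, with 1 array above 4. Kdr, the main signalling receptor for vascular endothelial growth factor in endothelium, lay between 1.79 and 2.39. The 2 probe sets of Cdh5 lay between 2.01 and 2.07 and between 2.37 and 2.86, and the third of Flt1 between 2.34 and 2.63. At these levels the arrays give no usable comparison, so for 3 of the 7 genes with probe sets (Pecam1, Kdr and Cdh5) no difference was tested.

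Over the 7 tested probe sets, limma called 0 in each of the 6 contrasts. Over all tested probe sets, 0.221% were called for cocaine against saline averaged over genotypes, 0.0473% in mutant mice and 0.11% in control mice. For mutant against control after cocaine, after saline and for the interaction, 0% of all probe sets were called each time. At an unadjusted p under 0.05, the endothelial probe sets numbered 2 of 7 for cocaine averaged over genotypes, against 5.09% of all probe sets. They numbered 2 of 7 in mutant mice, against 6.95% of all, and 1 of 7 in control mice, against 2.60% of all. In the other 3 contrasts 0 of 7 had an unadjusted p under 0.05, against 11.6% of all for genotype after cocaine, 2.76% after saline and 2.68% for the interaction. The probe sets of 1 gene share its transcript, so these counts are not of independent members. The number of arrays and the spread between them both limit the precision of these values. With 1 array per animal, the spread between animals includes that between arrays.

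**Figure D3:**
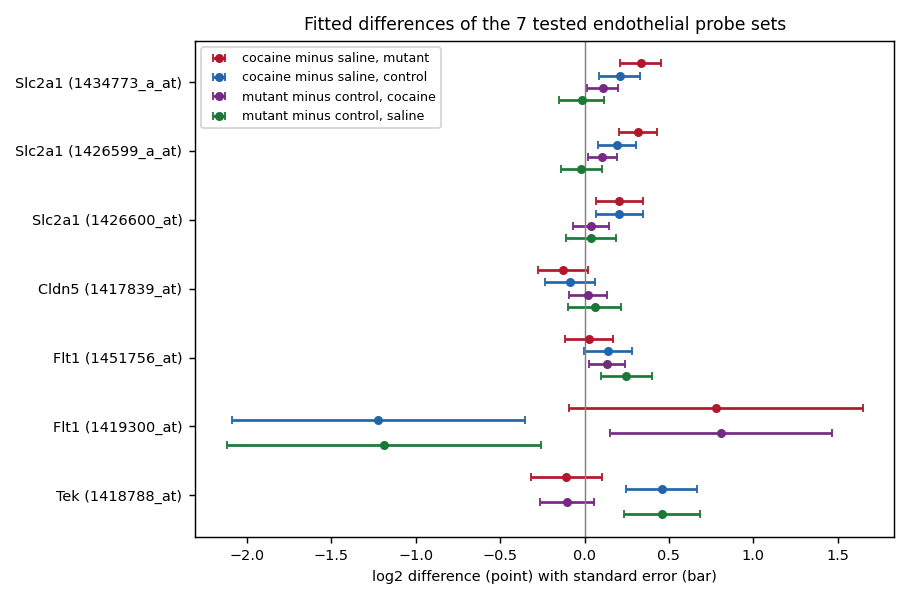
Fitted log2 differences (x axis, point with standard error) of the 7 tested endothelial probe sets (y axis) for cocaine minus saline in mutant and in control mice and for mutant minus control after cocaine and after saline. The cocaine differences of the 3 Slc2a1 probe sets lie between 0.19 and 0.33, those of Cldn5 lie below 0, and the second Flt1 probe set has the widest errors.

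Slc2a1 was then set against the other endothelial genes within each array, as its log2 value minus the mean of Cldn5, Tek and Flt1, the other genes that passed the filter, with 1 probe set per gene. Probe sets differ in brightness, so only changes of this difference between arrays have a meaning, not its size. It ranged from 4.53 through a median of 4.84 to 5.10 in mutant cocaine animals, and mutant saline animals had 4.61, 4.05 and 4.25. In control mice given cocaine it ranged from 4.54 through a median of 4.73 to 4.88, and control saline animals had 4.49, 4.51 and 4.72. Cocaine and saline animals overlapped in both genotypes. Fitted with the same terms, cocaine minus saline was 0.22 averaged over genotypes, 0.40 in mutant and 0.04 in control mice. Restricted to Arabic-numbered animals, the values were 0.36 in mutant and 0.08 in control mice. That restriction leaves out mutant cocaine replicate 5, which had the highest difference, 5.10. No test is attached, since the genes were chosen with results of these data known.

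The mean of Cldn5, Tek and Flt1 alone differed by -0.07 in mutant and 0.17 in control mice, where Slc2a1 differed by 0.33 and 0.21. In the Arabic-numbered arrays the 3 genes differed by -0.11 in mutant and 0.21 in control mice, and Slc2a1 by 0.25 and 0.29. The distance between genotypes in the response of Slc2a1 relative to the other genes was 0.36 in all arrays and 0.29 in the Arabic-numbered ones. In mutant saline animals the mean of the 3 genes was 6.77, 7.44 and 7.22, a wider span than in the other groups, which ran from 6.74 to 7.22 in mutant cocaine, 6.71 to 7.18 in control cocaine and 6.76 to 6.97 in control saline animals.

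With Pecam1, Kdr and Cdh5 also in the subtracted mean, 3 of its 6 genes lie below the filter and carry no usable signal. On that measure cocaine minus saline was 0.20 averaged over genotypes, 0.38 in mutant and 0.02 in control mice, and 0.30 in mutant and 0.09 in control mice in the Arabic-numbered arrays alone. Mutant cocaine animals then lay between 6.68 and 7.32 and mutant saline animals between 6.29 and 6.62, a separation that was absent with the 3 tested genes.

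**Figure D4:**
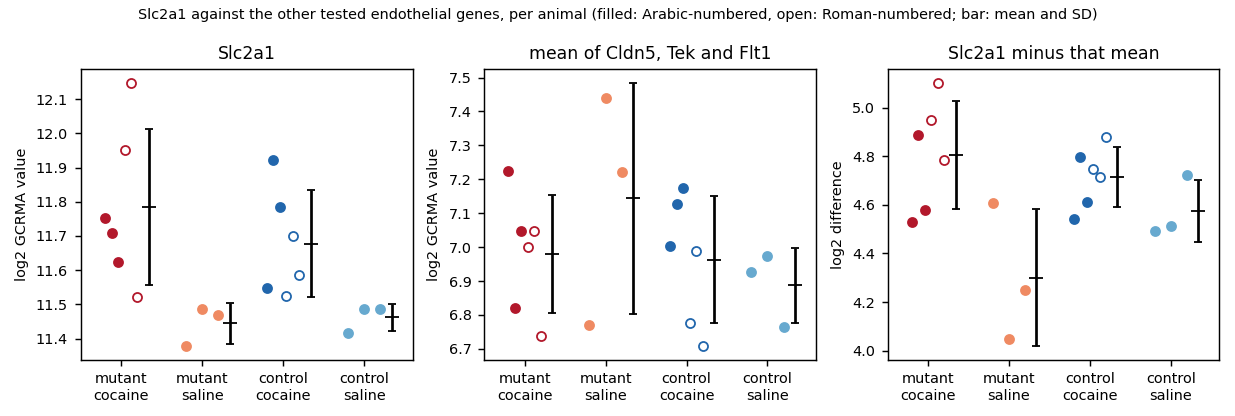
Log2 value of Slc2a1, the mean log2 value of Cldn5, Tek and Flt1, and the difference of the 2 (y axes) in each animal, by genotype and treatment (x axes). Filled points are Arabic-numbered and open points Roman-numbered animals, and bars are the mean and SD. The difference is lowest in mutant saline animals, with a mean of 4.30, against 4.81 in mutant cocaine, 4.72 in control cocaine and 4.57 in control saline animals.

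Residuals from the fit, which has terms for the 4 groups and the numbering series, describe how the endothelial transcripts varied together from animal to animal. Over the 18 arrays, the Slc2a1 probe sets correlated with each other at r = 0.70 to 0.96, and without mutant cocaine replicate 5 at 0.85 to 0.95. With all arrays, Slc2a1 correlated with Cldn5 at 0.48 to 0.57 and with Tek at 0.14 to 0.33. With the first Flt1 probe set it correlated at 0.40 to 0.59, and with the second at 0.10 to 0.35. Tek correlated with the first Flt1 probe set at 0.67, and Cldn5 with that probe set at 0.62. These coefficients describe arrays that share their RNA quality and normalization, and they carry no test.

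The genes most like the mean standardised residual of the 4 tested endothelial genes (Slc2a1, Cldn5, Tek and Flt1) over the same residuals were Mtarc2 (r = 0.90), Eci1 (0.86), Tm9sf2 (0.85), Itpkb (0.85) and Ramp2 (0.85), a partner of the adrenomedullin receptor made by endothelium. Those most like Slc2a1 alone were Arf6, a small GTPase of endosome traffic (0.95), Lmf1 (0.91) and Tspan5 (0.91). Without mutant cocaine replicate 5, those 3 remained at 0.92, 0.87 and 0.91, and Eci1 and Ramp2 left the first 5 for Podxl (0.86) and Pltp (0.84).

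Other endothelial markers gave no call. Of 42 in the list, 27 were tested and 0 passed in any contrast. For cocaine against saline averaged over genotypes, 17 of 27 were positive with a median of 0.10 (log2), against 53.7% positive and a median of 0.01 over all genes. In mutant mice 14 of 27 were positive with a median of 0.01, against 52.1% of all genes. In control mice 22 of 27 were positive with a median of 0.08, against 53.9%. Single genes of the list ran from -0.57 to 0.40 in mutant and from -0.69 to 2.30 in control mice. The brightest of them were Bsg, the partner protein of monocarboxylate carriers (-0.13 ± 0.11), and Itm2a (0.00 ± 0.06, log2, SE, averaged over genotypes). The list mean was 7.20 ± 0.08 in mutant cocaine, 7.22 ± 0.20 in mutant saline, 7.22 ± 0.14 in control cocaine and 7.11 ± 0.07 in control saline animals (SD).

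The ligands and co-receptors of the vascular endothelial growth factor and angiopoietin pathways had 5 tested genes of 14. All 5 were positive for cocaine averaged over genotypes, against 53.7% of all genes, with 0 called and a median of 0.07. Plxnd1, a semaphorin receptor, differed by 0.03 ± 0.06 and Vegfb by 0.11 ± 0.07. Vegfa, the ligand of Flt1 and Kdr, was singled out after its values were seen. It ranged from 7.51 through 7.96 to 8.47 in mutant cocaine animals, and mutant saline animals lay between 7.01 and 7.55. Control cocaine animals ranged from 7.96 through 8.20 to 8.42, and control saline animals lay between 7.31 and 7.65. Its cocaine difference was 0.58 ± 0.13, with a limma adjusted p of 0.128. With Roman-numbered arrays left out it was also 0.58, with an adjusted p of 0.0155, and without mutant cocaine replicate 5 the adjusted p was 0.0287.

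Pericytes and smooth muscle cells wrap the vessels that the endothelium lines. Of 9 tested markers, 0 were called and 7 were positive for cocaine averaged over genotypes, with a median of 0.16, against 53.7% of all genes. In mutant mice 8 of 9 were positive with a median of 0.25, against 52.1% of all genes. In control mice 7 of 9 were positive with a median of 0.11, against 53.9%. Rgs5, a marker of pericytes, differed by 0.16 ± 0.10 and Vtn by 0.18 ± 0.12 (log2, SE, limma adjusted p = 0.859 each). Of 11 genes listed for vascular fibroblasts and meninges, 2 were tested, Pdgfra (-0.01 ± 0.07) and Igf2 (0.09 ± 0.17). Of 9 listed for blood and perivascular macrophages, 1 was tested, Csf1r (0.11 ± 0.08). These genes were not called, and with most of each list untested they do not stand for those cell types. Of 7 choroid plexus and ependymal markers, 2 were tested and not called, Ttr at -0.48 ± 0.44 and Foxj1 at 0.02 ± 0.14. Ttr was dim, with a mean of 3.64 and values from 2.26 to 5.29, so these 2 do not stand for their cell types either. Of the striatal neuron markers, the brightest were Penk at -0.01 ± 0.03 and Ppp1r1b at 0.01 ± 0.03. Their part in the Slc2a1 values was not tested.

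Astrocytes are the other source of Slc2a1 in this tissue. Their 14 tested markers had a median cocaine difference of 0.01 averaged over genotypes, with 9 positive and 0 called. The 2 brightest were Aldoc at -0.02 ± 0.04 and Glul at -0.01 ± 0.03. In mutant mice 11 of 14 markers were positive with a median of 0.04, against 52.1% of all genes. In control mice 4 of 14 were positive with a median of -0.05, against 53.9%. The interaction was positive for 13 of 14, with a median of 0.11, against 48.1% of all genes, and 0 were called. The part of astrocytes in the Slc2a1 values was not tested. The astrocyte mean was 10.18 ± 0.04 in mutant cocaine, 10.12 ± 0.07 in mutant saline, 10.14 ± 0.08 in control cocaine and 10.23 ± 0.08 in control saline animals (SD). For cocaine averaged over genotypes, 12 other genes of glucose and lactate transport and glycolysis were tested, with 7 positive, 0 called and a median of 0.01. Aldoa differed by 0.00 ± 0.03 and Ldhb by 0.08 ± 0.06. Slc2a3, the neuronal glucose carrier GLUT3, was chosen after its values were seen and differed by 0.01 ± 0.06.

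**Figure D5:**
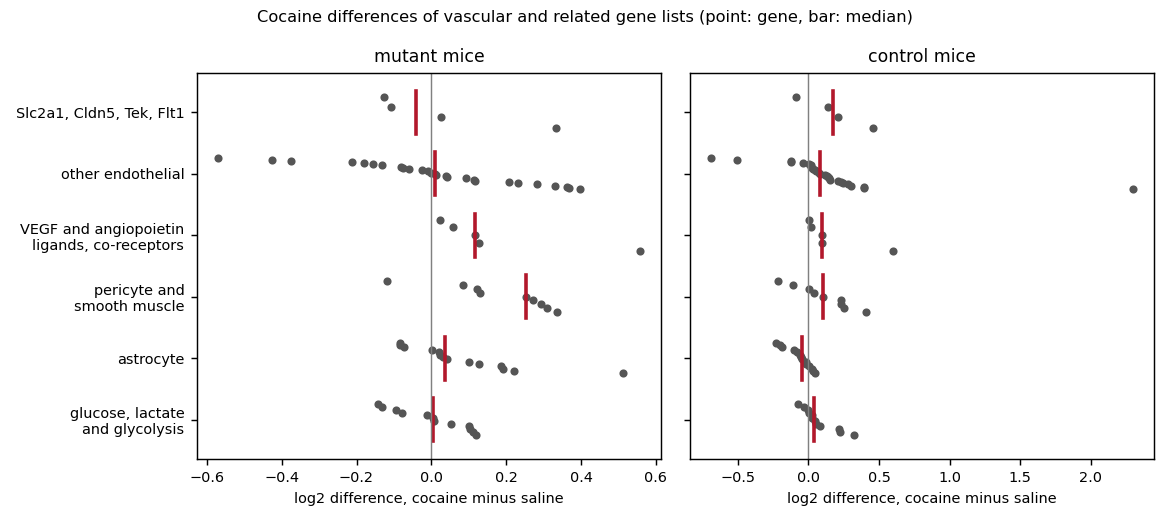
Log2 cocaine minus saline differences (x axes) of single genes (points) and their medians (bars) in 6 gene lists (y axis), for mutant mice on the left and control mice on the right. The pericyte and smooth muscle median is 0.25 in mutant and 0.11 in control mice, and the glycolysis median is 0.01 in mutant and 0.04 in control mice.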

How the data were processed

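Total RNA of striatum was hybridised to Affymetrix arrays, 1 per animal. The deposited values are log2 expression levels, for which the submitters' processing notes name GCRMA and R 2.4.1. Its options: not given in the sources used here. GCRMA equalises the arrays and compresses dim probe sets, so fold changes near the floor can be understated. They can also be large where single arrays read low, as in the second Flt1 probe set.

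Probe sets above log2 4 in at least 3 arrays were kept and 64 control probe sets left out, which gave 12674. Symbols come from GEO's platform annotation, replaced by the RefSeq symbol of the same Entrez gene where there was one. Limma 3.58.1 in R 4.3.3 was fitted on all of them, with terms for the 4 groups and for Arabic against Roman numbering, trended variance and Benjamini-Hochberg adjustment over all probe sets, with 6 contrasts. The code was tested on simulated data with large differences, no series effect and no outlying array. It was not tested at differences as small as those of Slc2a1. Each gene was represented by its brightest probe set on average. The members and lists were chosen with earlier results of these data known. Genes named are all members, up to 2 called genes of each list or else its 2 brightest, the 5 genes most like the members and the 3 most like Slc2a1 by residual correlation, Camk4 and Fos. Vegfa and Slc2a3 were added after their values were seen. Alternatives changed the filter, series term, pairing, moderation, array weights, actin covariate, scaling and arrays used. The table has 0 columns of no sample.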

Additional observations from a re-analysis of the deposited data

Results flagged for a closer look

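In 26 sets of arrays (a member probe set in one cocaine group, or Slc2a1 minus the other genes), 5 had 1 array far from its group by Dixon's ratio, which chance does in about 1 of 20 such sets. Control cocaine replicate 1 had a log2 value of 3.22 for the second Flt1 probe set (1419300_at), where the other 5 control cocaine arrays lay higher. Control cocaine replicate 6 had 5.78 for Tek, below its group. Kdr, below the filter in all arrays, had 1.79 in mutant cocaine replicate 4, below its group, and 2.39 in control cocaine replicate 2, above its group. Cdh5 (1433956_at), also below the filter, had 2.86 in mutant cocaine replicate 1, above its group.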

How the results depend on the processing

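Of the 7 endothelial probe sets, 0 were called in each contrast under all alternatives run except the Arabic-numbered arrays alone, where 2 Slc2a1 probe sets passed for cocaine averaged over genotypes, without and with blocks of consecutive numbers (the blocks were added after seeing the data). The first and second Slc2a1 probe sets kept a positive cocaine difference in every alternative, at 0.22 to 0.28 and 0.18 to 0.26, and at 0.21 to 0.30 and 0.20 to 0.29 with each array left out in turn, and the third gave 0.10 to 0.21 under the alternatives other than left-out arrays, lowest with the actin covariate and mutant cocaine replicate 5 left out. Slc2a1 minus the 6 other genes differed by 0.13 to 0.29, averaged over genotypes. The cause of the changed calls was not tested. With array weights their adjusted p were 0.0562 and 0.0757. Same-numbered samples had a mean residual correlation of 0.0045 (6 of 21 pairs over 0.1), against -0.0664 for pairs sharing neither number nor run (7 of 33). The labels' numbers were not taken as pairs. With the replicate block the first Slc2a1 probe set differed by 0.27 (limma adjusted p = 0.545). The count of all probe sets called for cocaine averaged over genotypes was 28, against 16 with consecutive blocks, 17 with an ordinary linear model, 67 without the series term, 103 with array weights, 224 with the actin covariate and mutant cocaine replicate 5 left out, 362 without that array, 43 without mutant cocaine replicate 1 and 382 and 430 in the Arabic-numbered arrays. Vegfa passed with an adjusted p of 0.0088 without the series term, 0.0438 without mutant cocaine replicate 1 and 0.0287 without replicate 5. In control mice the count over all probe sets was 14 (0 to 43 over the alternatives), in mutant mice 6 (0 to 26) and for genotype after cocaine 0 (0 to 1). The values below changed sign, none of them past the threshold in either direction, and the cause was not tested. In Arabic-numbered arrays alone, with or without blocks of consecutive numbers, the genotype difference after cocaine was -0.057 for Slc2a1 1434773_a_at, -0.068 for Slc2a1 1426599_a_at, -0.12 for Slc2a1 1426600_at and -0.11 for Cldn5. In the same fit, the interaction was -0.039 for Slc2a1 1434773_a_at, -0.049 for Slc2a1 1426599_a_at and -0.16 for Slc2a1 1426600_at. Under that setting, the cocaine difference in mutant mice was -0.0013 for Flt1 1451756_at. With the actin covariate and mutant cocaine replicate 5 left out (added after seeing the data), the genotype difference after saline was -0.10 for Slc2a1 1426600_at. In the same fit, the genotype difference after cocaine was -0.030 for Cldn5. Under that setting, the cocaine difference averaged over genotypes was 0.0055 for Itm2a and -0.048 for Slc2a3. With array weights, the interaction was -0.0047 for Slc2a1 1426600_at. In the same fit, the genotype difference after cocaine was -0.038 for Cldn5. Under that setting, the cocaine difference averaged over genotypes was 0.011 for Itm2a, -0.061 for Foxj1 and -9.6e-05 for Ppp1r1b. With the actin covariate, the genotype difference after cocaine was -0.0048 for Cldn5. In the same fit, the cocaine difference averaged over genotypes was 0.018 for Itm2a and -0.026 for Slc2a3. With no series term, the cocaine difference averaged over genotypes was -0.076 for Flt1 1451756_at, 0.20 for Flt1 1419300_at, 0.14 for Itm2a, -0.037 for Plxnd1, -0.067 for Foxj1, 0.16 for Ttr, -0.0026 for Ppp1r1b and -0.0063 for Slc2a3. There, the cocaine difference in control mice was -0.018 for Flt1 1451756_at. In the same fit, the cocaine difference in mutant mice was -0.13 for Flt1 1451756_at. With quantile normalization, the cocaine difference averaged over genotypes was 0.0021 for Itm2a and 0.0041 for Aldoa. With the mean of a gene's tested probe sets, the genotype difference after saline was 7.5e-04 for Slc2a1 1434773_a_at and -0.47 for Flt1 1451756_at. In the same fit, the cocaine difference averaged over genotypes was -0.070 for Flt1 1451756_at. Under that setting, the cocaine difference in control mice was -0.54 for Flt1 1451756_at. There, the interaction was 0.94 for Flt1 1451756_at. With each array left out in turn, these changed sign. For the genotype difference after saline the ranges were Slc2a1 1434773_a_at -0.041 to 0.016, Slc2a1 1426599_a_at -0.040 to 0.0088, Slc2a1 1426600_at -9.3e-04 to 0.074, Cldn5 -0.057 to 0.24 and Flt1 1419300_at -2.14 to 0.017. For the genotype difference after cocaine the ranges were Slc2a1 1426600_at -0.041 to 0.11 and Cldn5 -0.021 to 0.10. For the interaction the ranges were Slc2a1 1426600_at -0.080 to 0.072, Cldn5 -0.22 to 0.078 and Flt1 1451756_at -0.26 to 0.048. For the cocaine difference in mutant mice the ranges were Flt1 1451756_at -0.12 to 0.19, Flt1 1419300_at -0.43 to 1.72 and Tek -0.34 to 0.11. For the cocaine difference averaged over genotypes the ranges were Flt1 1419300_at -0.83 to 0.35, Itm2a -0.030 to 0.034, Pdgfra -0.063 to 0.035, Igf2 -0.021 to 0.28, Glul -0.036 to 0.011, Aldoa -0.017 to 0.014, Foxj1 -0.054 to 0.12, Penk -0.030 to 0.0018 and Slc2a3 -0.029 to 0.024. Signal near the floor limits Pecam1, Kdr and Cdh5. What limits the precision of the rest was not tested. The averaged cocaine difference of the first Slc2a1 probe set had an SE of 0.093 in 18 arrays and 0.055 in the 12 Arabic-numbered ones.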
